A study of Mus musculus with 4 samples.

Results

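The Wnt ligands, receptors and antagonists were 56 genes of 25965 in the deposited table, taken by their symbols: 19 Wnt ligands, 10 Frizzled receptors with the co-receptors Lrp5 and Lrp6, 10 secreted antagonists, 4 R-spondins, 5 nuclear genes and 6 feedback or target genes. They were measured in 4 poly(A) RNA libraries of cultured mouse aortic smooth muscle cells (VSMCs), which give the artery its contractile tone. Cells were released by enzymes from the media of the aorta of healthy wild type C57Bl/6 males, 8 to 14 weeks old, and had been passaged 3 to 5 times in medium with serum. All 4 libraries formed 1 group without treatment or freshly isolated tissue beside it, so the data give levels in culture, differences between genes within a library and the spread between libraries. The labels do not say whether the libraries came from separate animals, pooled animals or separate cultures, and the spread may be partly technical.

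Wnt proteins are secreted, lipid-modified signals that bind Frizzled receptors and, in the β-catenin branch, the co-receptors Lrp5 and Lrp6. Without a signal, β-catenin is held low by a destruction complex built on Axin; with a signal it accumulates and acts through the TCF/LEF transcription factors, while other Wnts act through Frizzled and Ror receptors on cell shape and polarity. Secreted Sfrp proteins and Wif1 bind Wnts, Dkk1 and Dkk2 bind Lrp5 and Lrp6, and R-spondins raise the amount of receptor at the surface. In vascular smooth muscle the pathway is studied for its part in proliferation, migration and calcification.

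A level here is the log2 of a scaled read count, so that 0 stands for a scaled count of 1, and errors are SDs across libraries (n = 4). A gene counted as detected at 0 or above in 4 of 4 libraries, which took 30, 29, 22 and 30 reads in libraries 1 to 4. The libraries held 40342561 to 56793195 reads on genes, recovered from the deposited values. A count of 0 allows up to 3 reads if reads are independent, and more if a fragment was counted more than once. These limits cover counting error only. Of 8 smooth muscle markers 7 were detected, and their summed level ranged from 11.83 in library 2 to 13.99 in library 4. Myocd, a coactivator of smooth muscle genes, had 51, 14, 12 and 53 reads in libraries 1 to 4. Of 6 adventitial fibroblast markers 5 were detected, with summed levels of 9.83, 9.58, 7.15 and 7.19. Endothelial markers (3 of 6 detected, summed levels 4.00 to 5.58) and leukocyte markers (1 of 6, 3.40 to 4.87) were low. The detected leukocyte gene was Csf1r, with 564, 581, 187 and 296 reads in libraries 1 to 4. C1qa had 173, 201, 0 and 18 reads, and the T cell gene Cd3e had no reads in any library. Pericyte markers (4 of 6 detected) summed to 8.92 to 11.05. In bulk RNA, fewer cells of a type and less RNA per cell cannot be told apart.

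Of the 56 genes, 33 were detected in 4 of 4 libraries (background 47.4% of all genes), 40 reached the threshold in at least 1 (background 54.6%), and 5 had no read in any. By role, 6 of 19 ligands, 11 of 12 receptors, 6 of 10 secreted antagonists, 2 of 4 R-spondins, 3 of 5 nuclear genes and 5 of 6 feedback and target genes were detected. The last group holds the Axin, Nkd and Wisp genes, so it also counts Axin1, a part of the destruction complex. Its member that was not detected was Axin2. The median of the mean levels was 4.41 over the detected members, against 5.09 over all detected genes. Over all 56 members, detected or not, it was 2.30, against 0.13 over all 25965 genes.

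**Figure D1:**
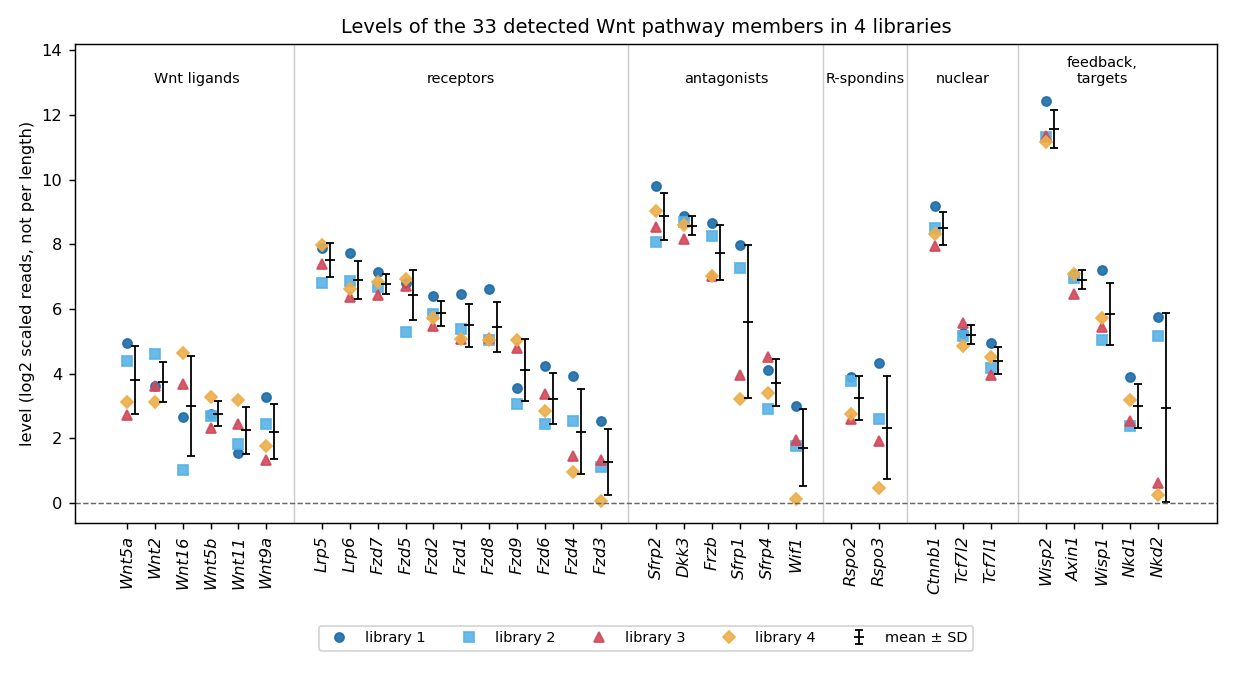
Level of each detected member (y axis, log2 scaled reads, not divided by length) in libraries 1 to 4 (symbols), with the mean ± SD at the right of each gene and the detection threshold as a dashed line. Receptor genes and the leading antagonists sat mostly between 5 and 9, ligands between 1 and 5, and Wisp2 above 11 in 4 of 4 libraries, while Sfrp1 and Nkd2 had high values in libraries 1 and 2 and low ones in libraries 3 and 4.

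Among the ligands, Wnt2, Wnt5a, Wnt5b, Wnt9a, Wnt11 and Wnt16 were detected, all at low levels. Wnt5a, the prototype of β-catenin-independent Wnts, had levels of 4.96, 4.39, 2.73 and 3.14 in libraries 1 to 4 (3.80 ± 1.04; chromosome 14, 28504750 to 28527447, GRCm38). Both values of libraries 1 and 2 lay above those of libraries 3 and 4. Wnt2, a ligand of the β-catenin branch, had 3.63, 4.61, 3.62 and 3.12 (3.74 ± 0.62; chromosome 6, 17988940 to 18030585), highest in library 2. Wnt16 ran the other way from Wnt5a, with 2.68, 1.03, 3.69 and 4.64 (3.01 ± 1.55; chromosome 6, 22288227 to 22298522), highest in libraries 3 and 4. Its reads were 186, 59, 284 and 735.

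Wnt5b, the close paralog of Wnt5a, varied least of the detected ligands, at 2.75, 2.71, 2.34 and 3.28 (2.77 ± 0.39). Its row overlaps that of Fbxl14, and the strand setting of the counting is not given in the sources used here. Wnt11 averaged 2.26 ± 0.73, with its highest level of 3.19 in library 4, and Wnt9a 2.21 ± 0.85, with its highest level of 3.29 in library 1.

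The other 13 ligand genes fell short of the threshold in at least 1 library. Wnt10a had 25, 90, 53 and 300 reads, Wnt2b 115, 96, 5 and 43, and Wnt4 39, 48, 0 and 9. These were the ligand genes that reached the threshold in some libraries. Wnt10b had 8, 14, 11 and 17 reads and Wnt6 had 7, 3, 0 and 6. Wnt7b and Wnt8a had at most 8 reads in a library, Wnt7a and Wnt8b at most 2. Wnt1 and Wnt3a, the classical ligands of the β-catenin branch, and Wnt3 and Wnt9b had no reads in any of the 4 libraries.

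Several Wnt genes lie in conserved side-by-side pairs, and the members of a pair did not share detection in the Wnt3a and Wnt9a pair. These genes are 16175 bases apart on chromosome 11 (GRCm38), in opposite orientation and with no other gene of the table between them. Wnt9a had 284, 158, 56 and 100 reads and Wnt3a had none. Wnt6 and Wnt10a, 6196 bases apart on chromosome 1 in the same orientation, had at most 7 and 300 reads in a library. In the pairs Wnt9b with Wnt3 (24328 bases apart) and Wnt10b with Wnt1 (11706 bases apart) no gene was detected, and Wnt10b was the only one of these 4 with reads.

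Frizzled genes, which encode the seven-pass Wnt receptors, were detected except for Fzd10, which had 4, 20, 0 and 0 reads. Fzd7 had levels of 7.16, 6.68, 6.44 and 6.83 (6.78 ± 0.30; chromosome 1, 59482147 to 59486947), a narrow spread. Fzd2 was similar in its spread, at 6.42, 5.85, 5.49 and 5.72 (5.87 ± 0.40; chromosome 11, 102604431 to 102608058). Fzd1, the third of this closely related trio, had 6.46, 5.38, 5.09 and 5.07 (5.50 ± 0.66). On the deposited scale all 3 were highest in library 1. After rescaling by median-ratio size factors, which equalise the typical gene between libraries, Fzd7 was highest in library 4 (6.95 against 6.84 in library 1).

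Fzd5 had 6.80, 5.29, 6.71 and 6.92 (6.43 ± 0.77), lowest in library 2. Fzd8, which is closely related to Fzd5, had 6.61, 5.05, 5.10 and 5.03 (5.45 ± 0.78), highest in library 1. With median-ratio size factors the Fzd8 levels were 6.29, 4.96, 5.40 and 5.15, so the gap between library 1 and the rest narrowed. Fzd9 averaged 4.12 ± 0.96 and was higher in libraries 3 and 4 (4.81 and 5.05) than in libraries 1 and 2 (3.57 and 3.07). Fzd6, which takes part in planar polarity, averaged 3.23 ± 0.78.

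Fzd4, the receptor of the non-Wnt ligand norrin, had 3.92, 2.54, 1.45 and 0.96 (2.22 ± 1.31), and Fzd3 had 2.55, 1.12, 1.35 and 0.08 (1.27 ± 1.01). Both were highest in library 1 and lowest in library 4, by 7.80-fold and 5.54-fold. Endothelial cells also express Fzd4, and the endothelial marker list had summed levels of 5.58, 4.93, 5.43 and 4.00, also lowest in library 4. Pecam1, Cdh5, Tie1, Kdr and Tek were lowest in library 4, and Vwf (2.78, 2.37, 3.63 and 2.75) in library 2. Pecam1 and Vwf were highest in library 3, unlike Fzd4 and Fzd3. The part of endothelial cells in these values was not tested.

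The co-receptor Lrp5 had levels of 7.88, 6.81, 7.40 and 7.99 (7.52 ± 0.54; chromosome 19, 3584828 to 3686564), and Lrp6 had 7.74, 6.88, 6.39 and 6.61 (6.91 ± 0.59; chromosome 6, 134446476 to 134566965). Lrp6 was highest in library 1 and lowest in library 3, and Lrp5 was highest in library 4 and lowest in library 2.

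To compare genes of different size, each level was divided by the length of the gene's exons (GENCODE M21, GRCm38, found for 56 of 56 members). On this scale of log2 scaled reads per kilobase, the receptors ran from Fzd7 (4.60 ± 0.30) through Lrp5 (4.24 ± 0.54), Fzd2 (4.00 ± 0.40), Fzd5 (3.64 ± 0.77), Fzd1 (3.43 ± 0.66), Lrp6 (3.13 ± 0.59), Fzd9 (2.93 ± 0.96) and Fzd8 (2.87 ± 0.78) to Fzd6 (0.96 ± 0.78), Fzd4 (-0.53 ± 1.31) and Fzd3 (-2.40 ± 1.01). Neighbours in an order were called separate where the difference had 1 sign in 4 of 4 libraries and its mean exceeded its SD. Of 10 neighbouring receptor pairs, 4 were separate: Fzd1 above Lrp6, Fzd8 above Fzd6, Fzd6 above Fzd4 and Fzd4 above Fzd3. Fzd7 therefore led the order without standing clear of Lrp5.

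Ligands per kilobase were led by Wnt2 (2.57 ± 0.62), followed by Wnt5b (1.36 ± 0.39), Wnt16 (0.89 ± 1.55), Wnt5a (0.84 ± 1.04), Wnt9a (0.48 ± 0.85) and Wnt11 (0.21 ± 0.73). Of these 5 neighbouring pairs, 2 were separate, Wnt2 above Wnt5b and Wnt5a above Wnt9a.

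Summed per kilobase, Fzd7 made up 26.2%, 34.5%, 25.5% and 29.0% of the 10 Frizzled genes in libraries 1 to 4, a steady share. Fzd2 made up 19.1% ± 3.63 (SD, n = 4) and Fzd5 15.6% ± 5.60. Wnt2 made up 28.7%, 49.8%, 37.7% and 17.2% of the 19 ligand genes, so the leading ligand differed: it was Wnt2 in libraries 1, 2 and 3 and Wnt16, with 25.6%, in library 4.

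**Figure D2:**
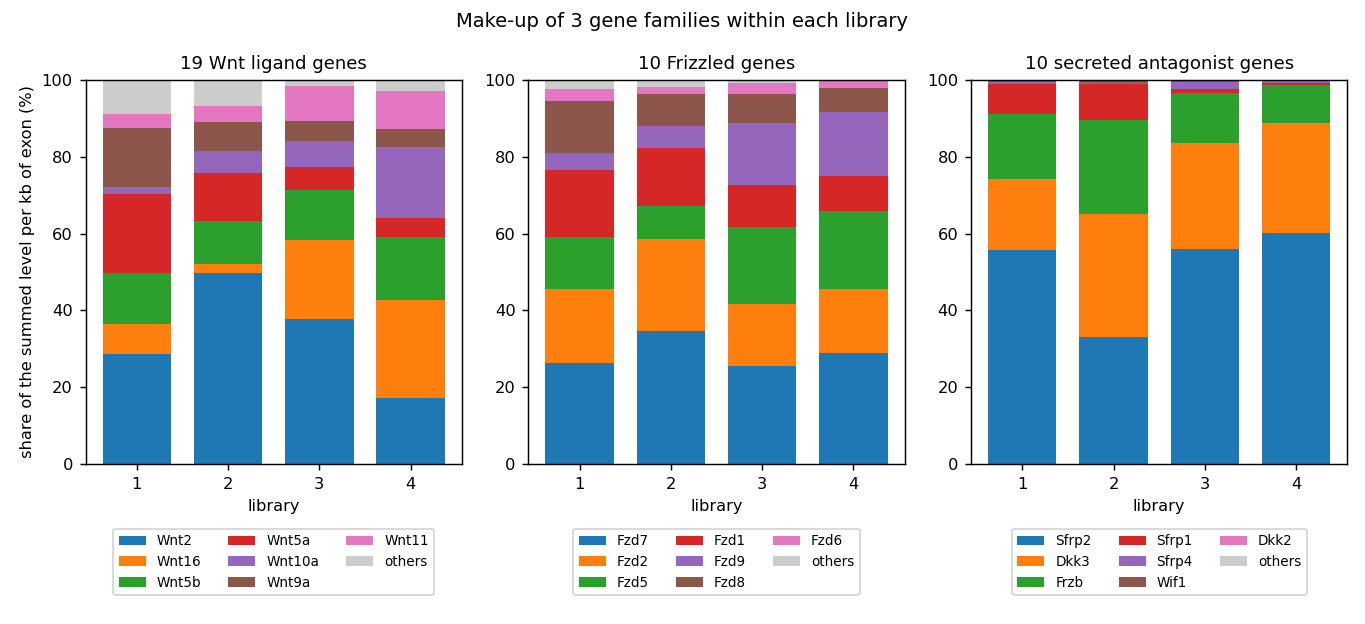
Share of each gene (coloured segments, % of the summed level per kilobase of exon) within the 19 Wnt ligand genes, the 10 Frizzled genes and the 10 secreted antagonist genes, for libraries 1 to 4 on the x axis. Fzd7 held 25.5% to 34.5% of the Frizzled sum and Sfrp2 33.0% to 60.1% of the antagonist sum, while Wnt2 ranged from 17.2% to 49.8% of the ligand sum.

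Secreted antagonists included several of the highest members, also per kilobase. Sfrp2, a secreted Frizzled-related protein, had levels of 9.81, 8.09, 8.54 and 9.03 (8.87 ± 0.74; chromosome 3, 83766321 to 83774316), highest in library 1 and lowest in library 2. Dkk3, a divergent Dickkopf family member that is not a typical Lrp5 and Lrp6 antagonist, had 8.87, 8.69, 8.17 and 8.60 (8.58 ± 0.30; chromosome 7, 112116019 to 112159057), close together in all libraries. Frzb, also known as Sfrp3, had 8.67, 8.25, 7.02 and 7.03 (7.74 ± 0.85; chromosome 2, 80411970 to 80447625), with libraries 1 and 2 above libraries 3 and 4.

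Sfrp1 differed widely between libraries. It had 7342 and 4460 reads in libraries 1 and 2 and 340 and 275 in libraries 3 and 4, levels of 7.98, 7.27, 3.95 and 3.23 (5.61 ± 2.37; chromosome 8, 23411502 to 23449632). The highest and lowest library were 27.0-fold apart, or 19.9-fold after rescaling by median-ratio size factors, and its SD ranked 12th among the 12306 detected genes. The summed level of the adventitial fibroblast markers was likewise higher in libraries 1 and 2 (9.83 and 9.58) than in libraries 3 and 4 (7.15 and 7.19), with Dpt at 4133, 3750, 110 and 111 reads and no marker of that list without reads; its part in the Sfrp1 values was not tested.

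Sfrp4 averaged 3.73 ± 0.72, highest in library 3 at 4.52. Wif1, which binds Wnts directly, had 3.01, 1.76, 1.97 and 0.12 (1.72 ± 1.20), highest in library 1 and lowest in library 4. Dkk2, an Lrp5 and Lrp6 ligand, had 134, 160, 14 and 48 reads and missed the threshold in library 3. Dkk1, the best-known Lrp6 antagonist, had 1, 1, 2 and 9 reads, Sfrp5 at most 2 in a library, and Dkk4 none.

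Per kilobase, the antagonists ran from Sfrp2 (7.76 ± 0.74) through Dkk3 (6.83 ± 0.30), Frzb (6.05 ± 0.85), Sfrp1 (3.48 ± 2.37) and Sfrp4 (1.67 ± 0.72) to Wif1 (0.44 ± 1.20), and 4 of 5 neighbouring pairs were separate, the exception being Sfrp1 and Sfrp4. Sfrp2 made up 55.7%, 33.0%, 55.9% and 60.1% of the sum of the 10 antagonist genes. In library 2 its share was close to that of Dkk3 (32.1%). The summed antagonists exceeded the summed ligands per kilobase by 5.29, 4.14, 4.42 and 4.17 on the log2 scale (4.51 ± 0.54), which is 22.7-fold at the mean. That antagonist sum includes the divergent Dkk3, which made up 18.5%, 32.1%, 27.6% and 28.6% of it in libraries 1 to 4. The summed Frizzled genes exceeded the ligands by 2.65, 1.60, 2.38 and 1.95 (2.15 ± 0.47). RNA levels of different genes do not give the amounts of their proteins.

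R-spondins act through Lgr receptors to spare Frizzled receptors from turnover. Rspo2 had levels of 3.89, 3.78, 2.61 and 2.75 (3.26 ± 0.67), higher in libraries 1 and 2. Rspo3, the family member best known in blood vessels, had 4.33, 2.61, 1.93 and 0.48 (2.34 ± 1.60; chromosome 10, 29453109 to 29535867), 14.4-fold apart between libraries 1 and 4. Rspo1 had 184, 15, 184 and 101 reads, below the threshold in library 2, and its row overlaps that of the gene model Gm12930. Rspo4 had at most 2 reads in a library. The per-kilobase levels of Rspo2 (0.91 ± 0.67) and Rspo3 (0.71 ± 1.60) were not separate.

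Ctnnb1, which encodes β-catenin, had levels of 9.19, 8.52, 7.97 and 8.33 (8.50 ± 0.52; chromosome 9, 120929216 to 120960507), highest in library 1; its row overlaps those of Ulk4 and 4930593C16Rik. Of the TCF/LEF factors, Tcf7l2 had 5.26, 5.16, 5.57 and 4.86 (5.21 ± 0.29) and Tcf7l1, usually described as a repressor, had 4.94, 4.19, 3.97 and 4.52 (4.41 ± 0.42). The Tcf7l1 row overlaps the gene models Gm15401 and Gm15402. Per kilobase, Ctnnb1 was separate from Tcf7l1, and Tcf7l1 and Tcf7l2 were not separate from each other. The remaining factors, both well known from T cells, had few reads, with Tcf7 at 18, 19, 17 and 13 and Lef1 at 4, 3, 27 and 11. Lef1 reached the threshold in library 3.

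Among feedback and target genes, Wisp2 was the highest member with and without division by length. Wisp2, a secreted CCN family protein described elsewhere as Wnt1-inducible, had levels of 12.45, 11.34, 11.36 and 11.18 (11.58 ± 0.58; chromosome 2, 163820861 to 163833146), or 162754, 74809, 57834 and 68130 reads. Its mean was at percentile 99.4 of the detected genes. Its paralog Wisp1 had 7.22, 5.03, 5.44 and 5.72 (5.85 ± 0.95; chromosome 15, 66891320 to 66923201). Both were highest in library 1.

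Axin1, the scaffold of the destruction complex, had levels of 7.10, 6.98, 6.48 and 7.08 (6.91 ± 0.29; chromosome 17, 26138688 to 26195811) and was among the steadiest members. Axin2, a feedback gene induced by β-catenin in many tissues, had 44, 28, 0 and 11 reads (chromosome 11, 108920349 to 108950783). It reached the threshold in library 1 only, and its row overlaps the gene model Gm11670. Nkd1, a Dishevelled-binding inhibitor, averaged 3.00 ± 0.68. Per kilobase, Wisp2 (10.64 ± 0.58), Axin1 (4.97 ± 0.29), Wisp1 (3.38 ± 0.95) and Nkd1 (0.82 ± 0.68) were each separate from the next, while Nkd1 and Nkd2 (0.68 ± 2.92) were not.

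Nkd2, the paralog of Nkd1, had 1571 and 1048 reads in libraries 1 and 2 and 34 and 35 in libraries 3 and 4, levels of 5.76, 5.18, 0.63 and 0.25 (2.95 ± 2.92; chromosome 13, 73818534 to 73847631). Its highest and lowest library were 45.4-fold apart, or 33.4-fold with median-ratio size factors, and its SD ranked 5th among the 12306 detected genes. Libraries 1 and 2 were also the high ones for Sfrp1, Frzb, Wnt5a and Rspo2, among others. The sums of the adventitial fibroblast markers (9.83 and 9.58 against 7.15 and 7.19) and the leukocyte markers (4.82 and 4.87 against 3.40 and 3.57) were likewise higher in libraries 1 and 2. Of the leukocyte genes, Csf1r, C1qa and Ptprc (13, 27, 0 and 12 reads) were higher there. Cd68 (49, 35, 42 and 21 reads) was mixed, and Itgam had reads in library 1 only. The sums of the smooth muscle markers (12.95 and 11.83 against 13.50 and 13.99) and the pericyte markers (9.70 and 8.92 against 10.75 and 11.05) were lower in libraries 1 and 2. The pericyte genes were split. Cspg4, with the most reads of that list (12472, 8738, 30186 and 51203), and Mcam were lower in libraries 1 and 2. Notch3 (5.94 and 4.87 against 3.34 and 3.04) and Kcnj8 were higher there, and Rgs5 and Abcc9 were mixed. The part of these cell types in the values of the members was not tested. The split was not particular to the members. Over all 12306 detected genes, the SD of the difference was 0.61 between libraries 1 and 2 and 0.47 between libraries 3 and 4. For the other pairs of libraries it was 0.73 to 0.92.

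**Figure D3:**
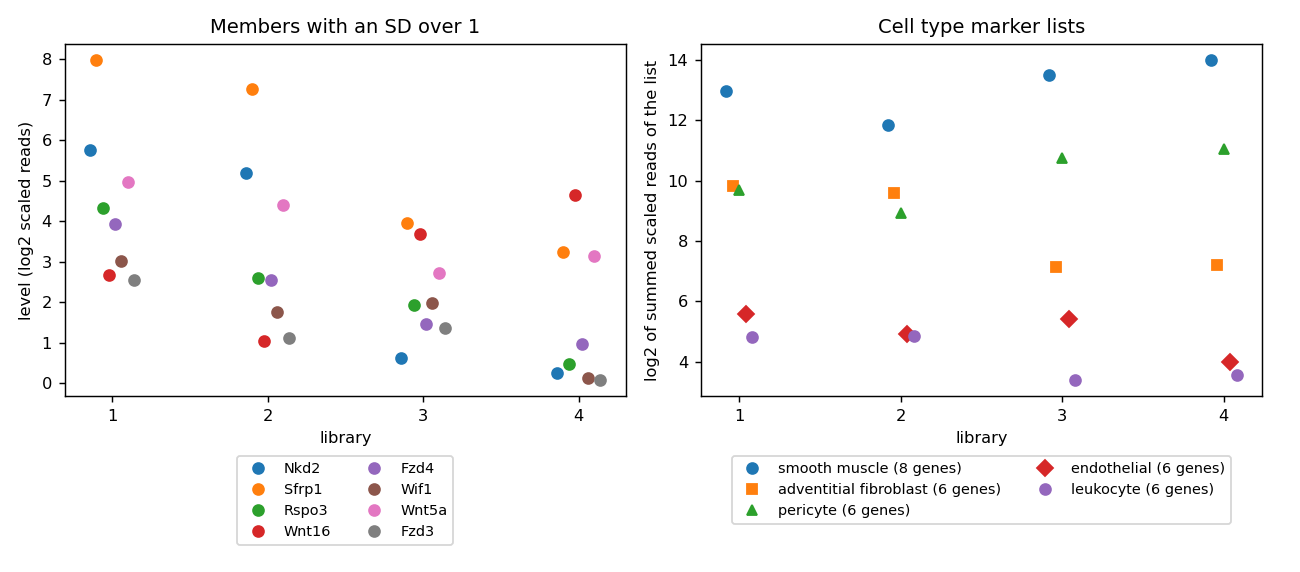
Left, levels (log2 scaled reads) of the 8 detected members with an SD over 1 in libraries 1 to 4. Right, log2 of the summed scaled reads of the 5 marker lists in the same libraries. Nkd2 and Sfrp1 were high in libraries 1 and 2, Wnt16 was highest in library 4, and the fibroblast list stood at 9.83 and 9.58 in libraries 1 and 2 and at 7.15 and 7.19 in libraries 3 and 4.

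Promoter letters are shown for the feedback genes Nkd2 and Axin2, which had most of their reads in libraries 1 and 2, and for Frzb and Wnt11, which hold the core letters recognised by TCF/LEF factors. The windows are the 250 bases before the RefSeq start (GRCm38.p6), read 5′ to 3′ along the gene: chr13:73847632-73847881 on the minus strand for Nkd2, chr11:108920099-108920348 on the plus strand for Axin2, chr2:80447397-80447646 on the minus strand for Frzb and chr7:98834862-98835111 on the plus strand for Wnt11. Capitals mark CTTTGA or its reverse complement TCAAAG.
Nkd2: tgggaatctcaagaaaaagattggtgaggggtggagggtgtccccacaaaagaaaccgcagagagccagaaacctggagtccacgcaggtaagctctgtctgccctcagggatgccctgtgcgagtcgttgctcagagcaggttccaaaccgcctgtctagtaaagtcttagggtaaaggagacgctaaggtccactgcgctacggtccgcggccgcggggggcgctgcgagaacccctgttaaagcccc
Axin2: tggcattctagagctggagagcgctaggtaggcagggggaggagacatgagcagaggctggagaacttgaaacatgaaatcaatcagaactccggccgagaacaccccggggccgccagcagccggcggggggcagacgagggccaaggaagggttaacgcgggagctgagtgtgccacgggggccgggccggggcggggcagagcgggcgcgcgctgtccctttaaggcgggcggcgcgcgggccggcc
Frzb: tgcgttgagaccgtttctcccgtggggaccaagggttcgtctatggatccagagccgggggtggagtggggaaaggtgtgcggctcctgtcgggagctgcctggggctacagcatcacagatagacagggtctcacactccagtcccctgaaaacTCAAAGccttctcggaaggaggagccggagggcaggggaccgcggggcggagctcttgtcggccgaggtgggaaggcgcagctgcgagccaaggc
Wnt11: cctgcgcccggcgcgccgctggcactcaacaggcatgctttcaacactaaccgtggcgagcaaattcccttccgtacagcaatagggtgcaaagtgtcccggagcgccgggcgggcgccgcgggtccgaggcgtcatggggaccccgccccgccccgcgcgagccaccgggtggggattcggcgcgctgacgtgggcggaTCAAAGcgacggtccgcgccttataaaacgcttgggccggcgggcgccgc

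The core began at position -95 from the start in Frzb and at -50 in Wnt11, and the windows of Nkd2 and Axin2 did not hold it. In the deposited table Frzb reaches to 80447625, so most of its window, with the core, lies inside the gene as given there. RefSeq promoters were matched for 37 of the 56 members, and 6 of these (Frzb, Fzd1, Wnt5b, Wnt11, Lef1 and Dkk1) held the core on either strand in at least 1 window. Per window this was 6 of 46, or 13.0%, against 13.8% of all 32851 promoters of the same length, so the share was near the background. The 46 windows had a median GC content of 66.8%, against 52.4% over all promoters. A match describes letters only, and their absence from this window says nothing about the factor.

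Spread between libraries was common in these genes. An SD over 0.5 on the log2 scale was found for 26 of the 33 detected members, while the background was 40.5% of the 12306 detected genes. An SD over 1 was found for 8, namely Nkd2, Sfrp1, Rspo3, Wnt16, Fzd4, Wif1, Wnt5a and Fzd3, with a background of 5.8%. The median SD was 0.73 over the detected members and 0.43 over all detected genes. Counting alone gives SDs of up to 0.27 for these genes, computed from half-weighted reads because a fragment may have been counted more than once.

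Library 1 was the highest library for 24 of the 33 detected members, with a background of 53.6% of all detected genes, and the lowest for 1, with a background of 16.3%. Library 3 was the lowest for 12 (background 52.9%), library 4 for 11 (background 17.5%) and library 2 for 9 (background 13.2%). The highest values of the other 9 members lay in library 2 for 1 (background 23.6%), in library 3 for 2 (background 12%) and in library 4 for 6 (background 10.8%). The deposited scale itself sets library 1 high: median-ratio size factors shifted the median detected gene by -0.32, -0.10, 0.30 and 0.12 in libraries 1 to 4. On that scale library 1 was the highest for 19 of 33 members (31.0% of all detected genes) and the lowest for 3 (34.4%). Library 2 was then the lowest for 14 (20.2%), library 3 for 6 (28.7%) and library 4 for 10 (16.7%), and library 4 was the highest for 10 (17.2%). With these size factors 21 of 33 had an SD over 0.5, with 30.8% of all detected genes. All 21 were among the 26, and the 5 lost were Lrp6, Fzd1, Rspo2, Ctnnb1 and Wisp2. Without library 1, 18 of 34 detected members had an SD over 0.5, with 27.2% of all detected genes.

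**Figure D4:**
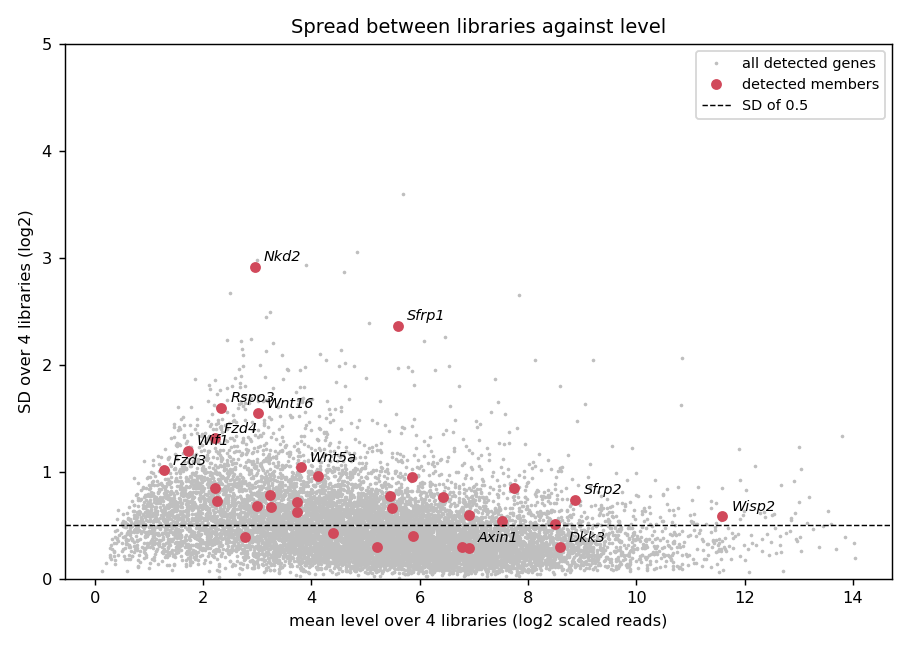
SD over the 4 libraries (y axis, log2) against the mean level (x axis, log2 scaled reads) for all 12306 detected genes (grey) and the 33 detected members (red), with the SD of 0.5 as a dashed line. Of the members, 26 lay above the line, Nkd2 and Sfrp1 near the upper edge of all genes, and Dkk3 and Axin1 below the line.

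Differences between 10 pairs of genes were compared within libraries on the per-kilobase scale with a permutation test, two-sided and exact over all 16 sign arrangements, which with 4 libraries cannot give a p below 0.125. In 8 of the 10 the sign was the same in 4 of 4 libraries (exact p = 0.125, Benjamini-Hochberg adjusted p = 0.156 over 10 tests), so none could pass 0.05. Wisp2 exceeded Wisp1 by 6.77, 7.84, 7.45 and 6.99 (7.26 ± 0.48). Dkk3 exceeded Dkk2 by 6.80, 6.36, 8.96 and 8.04 (7.54 ± 1.18). Sfrp1 minus Sfrp2 was -2.85, -1.84, -5.61 and -6.83 (-4.28 ± 2.33), negative throughout, with the smaller gaps in libraries 1 and 2.

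Among the receptors, Fzd7 exceeded Fzd2 by 0.43, 0.52, 0.65 and 0.81 (0.60 ± 0.16), the narrowest spread of the 10. Fzd1 minus Fzd2 was -0.15, -0.67, -0.60 and -0.85 (-0.57 ± 0.30). Lrp6 minus Lrp5 was -0.63, -0.42, -1.50 and -1.87 (-1.11 ± 0.69), so per kilobase Lrp5 was the higher co-receptor in 4 of 4 libraries. Without division by length these pairs had mixed signs, with Lrp6 minus Lrp5 at 0.07 in library 2 and Fzd1 minus Fzd2 at 0.04 in library 1 (exact permutation p = 0.25 for each).

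Axin1 exceeded Axin2 by 7.03, 7.55 and 9.02 in libraries 1, 2 and 4. In library 3, where Axin2 had no reads and was set to the limit of 3, Axin1 was 943-fold higher. With that limit the mean difference was 8.37 ± 1.31, and with the table's floor it was 8.80 ± 2.06. Wnt5a exceeded Wnt4 by 3.64, 2.76 and 3.95 in libraries 1, 2 and 4. In library 3, where Wnt4 had no reads and was likewise set to 3, Wnt5a was 26.1-fold higher. With that limit of 3 reads the mean difference was 3.76 ± 0.81, and with the table's floor it was 4.20 ± 1.58. If a fragment was counted more than once, the limit exceeds 3 reads, and the values in library 3 could be lower than 943-fold and 26.1-fold.

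The remaining 2 pairs changed sign between libraries. Wnt5a minus Wnt5b was 0.65, 0.12, -1.16 and -1.70 (-0.52 ± 1.09, exact permutation p = 0.5), positive in libraries 1 and 2 and negative in libraries 3 and 4. Tcf7l2 minus Tcf7l1 was -0.84, -0.20, 0.44 and -0.83 (-0.36 ± 0.61, exact permutation p = 0.375, adjusted p = 0.417). Both means turned positive without division by length (1.04 and 0.81), and the second did so with the longest transcript as the length (0.52).

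**Figure D5:**
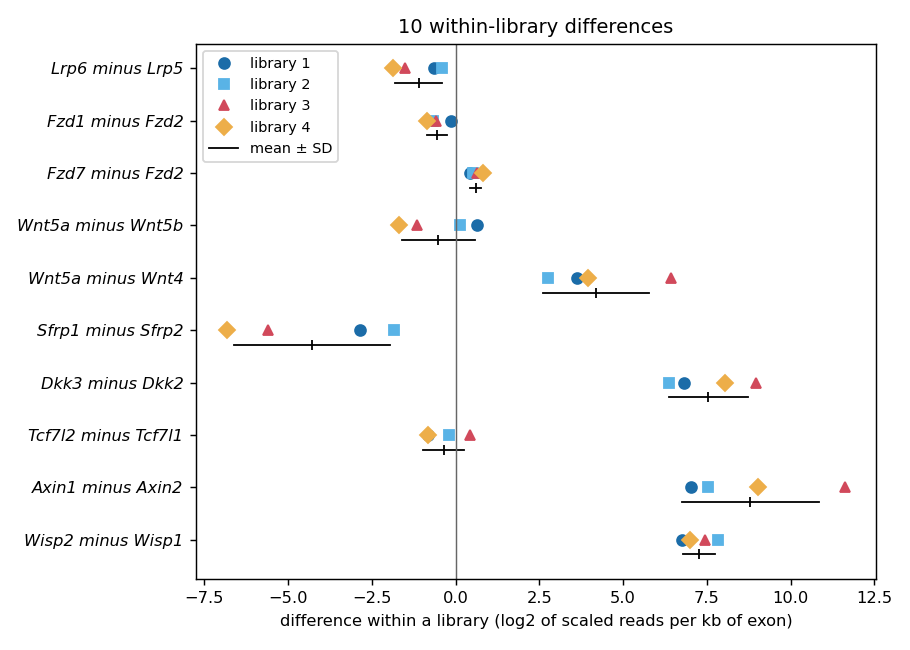
Difference between 2 genes within a library (x axis, log2 of scaled reads per kilobase of exon) for 10 pairs (rows), with a symbol per library and the mean ± SD as a black line under it. The points of 8 pairs lay on 1 side of 0, while those of Wnt5a minus Wnt5b and Tcf7l2 minus Tcf7l1 lay on both sides. Genes without reads in library 3 (Axin2 and Wnt4) are drawn at the table's floor.

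Other genes of the pathway were looked at through a list of 62 genes that are no members. Of these, 49 were detected (79.0%, with a background of 47.4%), and 29 of the 49 had an SD over 0.5 (background 40.5%). The median of the list's mean levels was 4.22, against 0.13 over all genes. The levels that follow are log2 scaled reads not divided by length. The 3 genes named first in a class are those with the most scaled reads, which depend on gene length as well as on RNA amount.

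In ligand secretion, Wls, which carries Wnt proteins to the cell surface, averaged 8.58 ± 0.54 and Porcn, the enzyme that adds the lipid, 1.52 ± 0.52. Of 12 co-receptor and receptor turnover genes 10 were detected, among them Ryk, a Wnt-binding receptor (7.42 ± 0.44), Kremen1, a Dickkopf receptor (6.15 ± 0.68), and Ptk7, a polarity co-receptor (5.61 ± 0.85). Lgr6, an R-spondin receptor, had levels of 3.63, 2.78, 4.82 and 6.15 (4.34 ± 1.47), higher in libraries 3 and 4. Of the ubiquitin ligases on which R-spondins act, Znrf3 averaged 2.93 ± 0.52 and Rnf43 had no reads in any library.

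All 7 destruction complex genes were detected, among them the kinase genes Csnk1a1 (7.29 ± 0.24), Gsk3a (6.47 ± 0.50) and Gsk3b (6.18 ± 0.59). Of 6 Dishevelled genes and partners 4 were detected, among them Dvl2 (7.83 ± 0.26), Dvl1 (6.63 ± 0.14) and Dact3 (6.62 ± 0.34), and none of these had an SD over 0.5. All 9 nuclear cofactors were detected, among them Pygo2 (7.12 ± 0.24) and Bcl9l (6.56 ± 0.62), coactivators of β-catenin, and Ctnnbip1 (6.46 ± 0.12), its inhibitor.

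Of 10 planar polarity genes 7 were detected, among them Daam1 (6.23 ± 0.47), Scrib (5.82 ± 0.71) and Prickle2 (3.99 ± 0.66). Vangl2 (1.50 ± 1.25) and Prickle1 (2.79 ± 1.16) had an SD over 1, and both were higher in libraries 1 and 2 than in libraries 3 and 4. Of 9 genes known as targets in other tissues 7 were detected, among them Ccnd1 (10.26 ± 0.61), encoding cyclin D1, Cyr61 (10.19 ± 0.56) and Cd44 (8.27 ± 0.32). Many other signals also drive these 3 genes. Sp5, a more specific target, had 27, 20, 45 and 20 reads and was not detected.

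Of 7 other antagonist genes 3 were detected, namely Igfbp4 (10.20 ± 0.08), Serpinf1 (6.46 ± 2.26) and Apcdd1 (1.62 ± 1.01). Serpinf1, which is also on the fibroblast marker list, had levels of 8.53, 8.28, 4.86 and 4.18. Sost, encoding the Lrp5 and Lrp6 antagonist sclerostin of bone and arterial wall, had 177, 5, 409 and 1392 reads, and only library 2 fell below the threshold. Sostdc1 had no reads in any library.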

How the data were processed

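Poly(A) RNA of 4 libraries was analysed. Per the labels' protocols, each was made from 4 µg of total RNA (integrity number 7.8 to 9) with a strand-preserving kit. The submitters' processing notes name Trim Galore, cutadapt, TopHat and the build GRCm38, all unversioned, and no source used here gives the counting tool, annotation or strand setting. The authors deposited 1 table of log2 values with gene positions. Its values are whole reads times a library constant on the log2 scale, not divided by length, with a floor of 0.9 read for genes without any. Turned back into reads, 99.7% to 99.8% of the values above the floor lay within 0.05 of a whole number. Totals on genes were 56265771, 55521915, 40342561 and 56793195. A fragment may have been counted more than once.

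Libraries are numbered 1 to 4 in the order of the samples and form the only group. The members, lists, pairs and thresholds were chosen with earlier results of these data known. Every member is named, with values per library for the 3 highest detected of each role, those with an SD over 1 and the 10 pairs. From 62 pathway genes, the 3 with the most scaled reads in each class and those with an SD over 1 are named. The values per library of Fzd5, Fzd8, Fzd9 and Rspo1, and the mention of Znrf3, Rnf43, Sp5, Sost and Sostdc1, were chosen after their values were seen. Exon lengths came from GENCODE M21, where 34 of 56 members had the table's start and end. No count model was fitted, since there was 1 group. Tests were exact sign-flip permutations with Benjamini-Hochberg adjustment. Reads were simulated for 25965 genes with counting error only, to check that the SD call runs. All 200 of 200 changed genes were recovered. They lay well above the detection threshold and were given shifts far larger than the SD threshold, so recovery was fixed in advance. The simulation cannot show how well smaller spreads or genes with few reads are called. Python 3.11.15, numpy 2.4.6, pandas 2.3.3, scipy 1.17.1 and matplotlib 3.10.9 were used. Other scalings, thresholds, lengths and pseudocounts were tried, and each library was left out in turn.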

Additional observations from a re-analysis of the deposited data

Results flagged for a closer look

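Of the 33 levels of detected members and the 10 within-library differences, 3 had a library far from the other 3 by Dixon's test at its 95% critical value, which compares the gap to the nearest library with the whole range. On the median-ratio scale none of the 3 was past that value. The levels of the other members were not put through the test on that scale. Among them, Lrp6 (7.42, 6.79, 6.68 and 6.73) and Tcf7l2 (4.94, 5.06, 5.87 and 4.98) then had 1 library apart from the rest. Chance flags about 1 in 20 groups of 4. The level of Fzd8 was 6.61 in library 1, with a gap of 0.958 of the range, or 0.671 with median-ratio size factors. The level of Wisp2 was 12.45 in library 1, with a gap of 0.857 of the range, or 0.533 with median-ratio size factors. The level of Fzd5 was 5.29 in library 2, with a gap of 0.866 of the range, or 0.696 with median-ratio size factors.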

How the results depend on the processing

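The count of detected members was 33 and ranged from 28 to 40 over thresholds, scalings and filters, and from 33 to 35 with a library left out. The count with an SD over 0.5 was 26; it was 8 with a threshold of 1, 42 with no filter on low values, 21 on either other scaling, and 18 to 27 with a library left out. The pathway list had 45 to 50 genes detected. The 6 members with the TCF/LEF core became 2 with the longer core ATCAAAG. Without division by exon length, Wnt5a minus Wnt5b became 1.04 and Tcf7l2 minus Tcf7l1 became 0.81, and with the longest transcript the latter became 0.52; here the length alone sets the change. The means of the other 8 differences kept their sign under the lengths, pseudocount and left-out libraries tried. Lrp6 minus Lrp5 and Fzd1 minus Fzd2 no longer had 1 sign in 4 of 4 libraries without division by length (exact permutation p = 0.25 for each). The scaling does not enter these differences. No paired comparison of conditions was possible because the libraries form a single group, while the differences between genes were paired within a library. Depth limits the genes with few reads, such as Wnt6, Dkk1 and Lef1.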
